A study of Homo sapiens with 6 samples.

Results

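Genes of homologous recombination and of the Fanconi anaemia pathway were examined in Capan1 pancreatic cancer cells grown with or without stellate cells. The set comprised 44 genes, taken by symbol. A gene counted as measured where 3 or more of the 6 arrays detected a probe annotated to it (detection p below 0.05), and the probe with the highest mean stood for the gene. On that rule 33 of the 44 were measured, among 10781 named genes measured in all. No probe was named BRCA2, RBBP8, FANCA or FANCD2 in the annotation used, so these 4 genes were not analysed here. The other 7 were below the detection rule. BRIP1, RAD50, FANCC, FANCM and ATR were detected on no array, and RAD52 and FANCF on 1 array each, both with stellate cells. Closest above the rule were RAD51B and RAD51D, each detected on 4 arrays. All 33 probes were detected on at least 1 array of each group, and 30 of them on all 6 arrays.

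Homologous recombination copies an intact sister DNA molecule to mend a broken one. Broken ends are trimmed to single strands, BRCA1 and its partners bring in BRCA2, and strand exchange with the intact copy then follows. The Fanconi pathway clears crosslinks between the strands: a core complex and the enzyme UBE2T attach ubiquitin to FANCI and FANCD2, and USP1 removes it. Recombination needs a sister copy, so many of these genes are expressed mainly in S and G2 phase. Inherited or acquired loss of BRCA2 is a known feature of some pancreatic cancers, and Capan1 is widely used as a BRCA2-mutant line.

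Capan1 is an established human line from a pancreatic adenocarcinoma, and it was laid on gels that mixed type I collagen with Matrigel. In 3 samples PS1 cells, a pancreatic stellate cell line, were embedded in the gel, and in 3 samples Capan1 grew alone. Gels were raised onto a grid after 24 hours and harvested on day 10, and the cancer cell layer was cut from frozen sections by laser. RNA was read on Illumina BeadChips with 47228 probes, and the comparison asks how the cancer cells differ when stellate cells are in the gel. A further label names PS1 on all 6 samples, which goes against the titles of the 3 samples without it. The groups follow the titles, and every direction below rests on the titles being right. Levels are log2 intensities after background correction and quantile normalization, and each probe's level can be compared between arrays but not with another probe's.

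Arrays detected 16325 to 19602 probes with stellate cells and 17785 to 19206 alone. Replicate 3 with stellate cells detected the fewest, and its 28S ribosomal RNA probes, 2 in number, averaged a log2 intensity of 11.85, against 7.29 and 6.28 in replicates 1 and 2 of that group and 6.92 to 8.10 alone. Of 12 epithelial and duct markers all 12 were detected on every array, with a summed linear intensity of 41241 to 52758 with stellate cells and 34830 to 42817 alone. The sum weighs bright markers most. Of the 12, 10 had log2 changes above 0 and 2, EPCAM and KRT18, below. MUC1 averaged 13.10 ± 0.22 with stellate cells and 11.90 ± 0.05 alone, and EPCAM 12.61 ± 0.27 and 12.73 ± 0.20 (log2 scale, SD, n = 3 arrays each). Of 22 stellate and fibroblast markers 10 were detected nowhere, among them the defining markers COL1A2, PDGFRB, LUM and DES, and 2, VIM and S100A4, on every array. Their summed intensity was 12811 to 19183 with stellate cells and 11952 to 14449 alone, of which S100A4 gave nearly all. Without S100A4 the sums were 692 to 852 with stellate cells and 803 to 872 alone. The other 10 markers went both ways. With stellate cells 3 arrays detected TAGLN and 2 detected DCN, against 0 alone for either gene, while ACTA2 averaged 5.33 ± 0.20 on the log2 scale with stellate cells and 6.37 ± 0.44 alone (SD, n = 3 arrays each). COL6A1 fell by 1.31 on the log2 scale (limma adjusted p = 0.0216), but did not pass with any array alone left out, or with replicate 1 of the other group left out. The part of these genes in the results below was not tested. By their brightest probes the housekeeping genes ACTB and GAPDH had differences of -0.08 and 0.11 in log2 intensity (limma adjusted p = 0.835 and 0.747). Both signs turned under other processing. Other probes had -0.23 and -0.39 for ACTB, and -0.17 and 0.05 for GAPDH. The 9 measured housekeeping genes ran from -0.66 to 0.22, and 0 passed. At an unadjusted limma p under 0.05, 2 were lower and 0 higher, where 9.25% of all named genes were lower.

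Most recombination and Fanconi genes had lower values in Capan1 grown with stellate cells. Of 33 measured genes 31 had log2 changes below 0, or 93.9%, where 48.2% of all named genes did. RAD51D and FANCB, dim probes detected on all arrays alone and on fewer with stellate cells, could pass the detection rule through the arrays alone. Of the 30 members detected on all 6 arrays 29 were below 0, where 46.9% of such named genes were, and the median was -0.59. UBE2T, FANCI, CHEK2, EME1, RAD51AP1 and RAD54B fell at a limma p adjusted over all 18165 tested probes under 0.05, and 0 rose. These 6 were 18.2% of the measured members, where 2.11% of all named genes fell and 2.65% rose. By the unadjusted limma p 19 members were lower and 0 higher, or 57.6% lower, where 9.25% of all named genes were lower. The groups did not overlap, with the lower values in all arrays with stellate cells, for 15 members, or 45.5%, where 11.5% of all named genes showed this. RAD51D and FANCB are counted in the 19 and in the 15, so these shares rest in part on how they passed the detection rule. Of named genes detected on all 6 arrays 9.61% were lower by the unadjusted limma p, and 11.9% were lower without overlap. The median log2 change of the members was -0.58, and that of all named genes was 0.02. Genes of a pathway move together across arrays, so the members are not independent observations. In captured tissue, fewer cells expressing a gene and less RNA per cell cannot be told apart. Whether replicates were separate cultures is not stated, so the p-values rest on a spread between samples that may be technical.

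**Figure D1:**
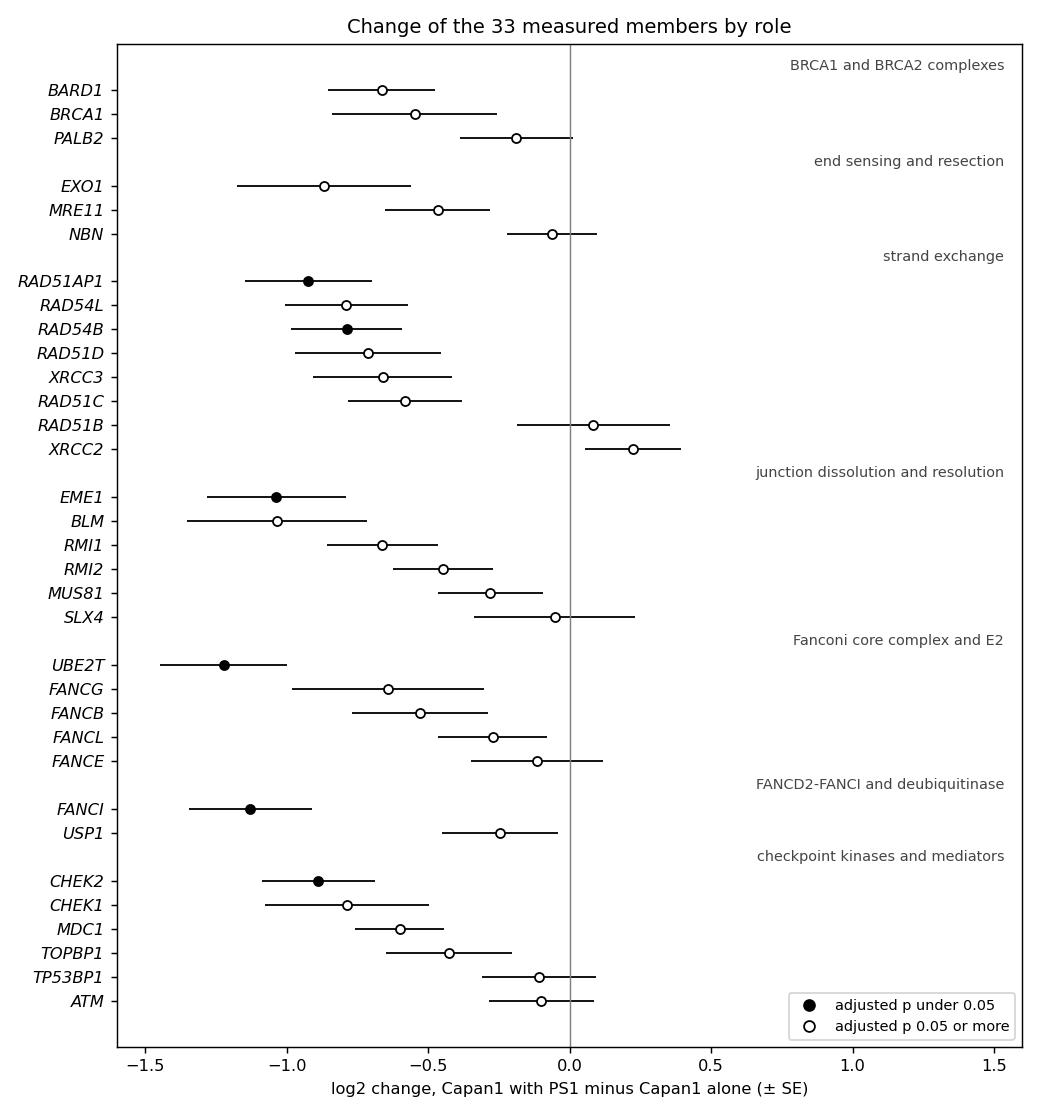
Log2 change of each measured member, Capan1 with PS1 stellate cells minus Capan1 alone, grouped by role, with its standard error as the bar (3 arrays per group). Filled points passed an adjusted p of 0.05, and 31 of the 33 points lie left of 0.

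The call of 6 members depended on single arrays. With replicate 1 with stellate cells left out 0 members passed, where 0.594% of all named genes fell, and likewise with replicate 1, 2 or 3 alone left out, where 0.714%, 0.519% and 0.427% fell. A count of 0 among 33 members is near those shares. Leaving out replicate 2 with stellate cells kept 2, UBE2T and FANCI, where 0.983% of all named genes fell. Leaving out replicate 3 with stellate cells gave 20, the same 6 among them, where 8% of all named genes fell in that fit. The median log2 change of the members stayed between -0.69 and -0.49 in these 6 fits. The mean log2 signal of the array before normalization was 7.06, 7.61 and 7.36 with stellate cells, against 7.69, 7.44 and 7.53 alone, and with this brightness as a covariate 0 members passed, where 0.538% of all named genes fell, at a median of -0.53 for the members.

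Among the measured Fanconi genes UBE2T and FANCI, which act in the ubiquitin step, had the largest log2 changes. USP1 and the ligase FANCL, of the same step, did not pass. UBE2T, the ubiquitin-conjugating enzyme of the pathway, had log2 intensities of 9.15, 8.75 and 9.80 in replicates 1, 2 and 3 with stellate cells, against 10.47, 10.38 and 10.52 alone. Every array with stellate cells lay below every array alone, and the probe was 2.33-fold lower with stellate cells (log2 change -1.22 ± 0.22, SE, limma adjusted p = 0.0119). FANCI, a substrate of that step, had 8.09, 7.66 and 8.57 with stellate cells, against 9.14, 9.33 and 9.25 alone. Its groups did not overlap either, and its log2 change was -1.13 ± 0.22 (limma adjusted p = 0.0148). USP1, the enzyme that takes the ubiquitin off again, had 9.27, 9.21 and 10.00 with stellate cells, against 9.73, 9.85 and 9.64 alone. Replicate 3 with stellate cells was the highest of the 6 arrays, and the change of -0.25 ± 0.20 did not pass (limma adjusted p = 0.580). A dimmer probe of USP1, annotated to another transcript, had -0.77 ± 0.30 (limma adjusted p = 0.188).

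The 4 measured subunits of the Fanconi core complex did not pass. FANCG, a subunit of its scaffold, had log2 intensities of 7.73, 7.61 and 9.15 with stellate cells, against 8.85, 8.49 and 9.07 alone, so replicate 3 with stellate cells was above all others. Its change was -0.64 ± 0.34 (limma adjusted p = 0.347). FANCB, which binds the ligase subunit FANCL, had 5.28, 5.22 and 5.26 with stellate cells, where it was detected on 2 arrays, against 5.76, 5.52 and 6.06 alone, where it was detected on all 3. The groups did not overlap, at -0.53 ± 0.24 (limma adjusted p = 0.269). Its dimmer probe was undetected on every array with stellate cells but detected on all 3 alone, so that the filter on dim probes passed it through the arrays alone and the level with stellate cells is only a bound. Set against the lowest detected level of each array, it was at least 1.25-fold lower with stellate cells, and it did not pass (limma adjusted p = 0.0702). FANCL, the ubiquitin ligase itself, had -0.27 ± 0.19 and FANCE, the subunit that contacts FANCD2, -0.11 ± 0.23, and both groups overlapped.

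**Figure D2:**
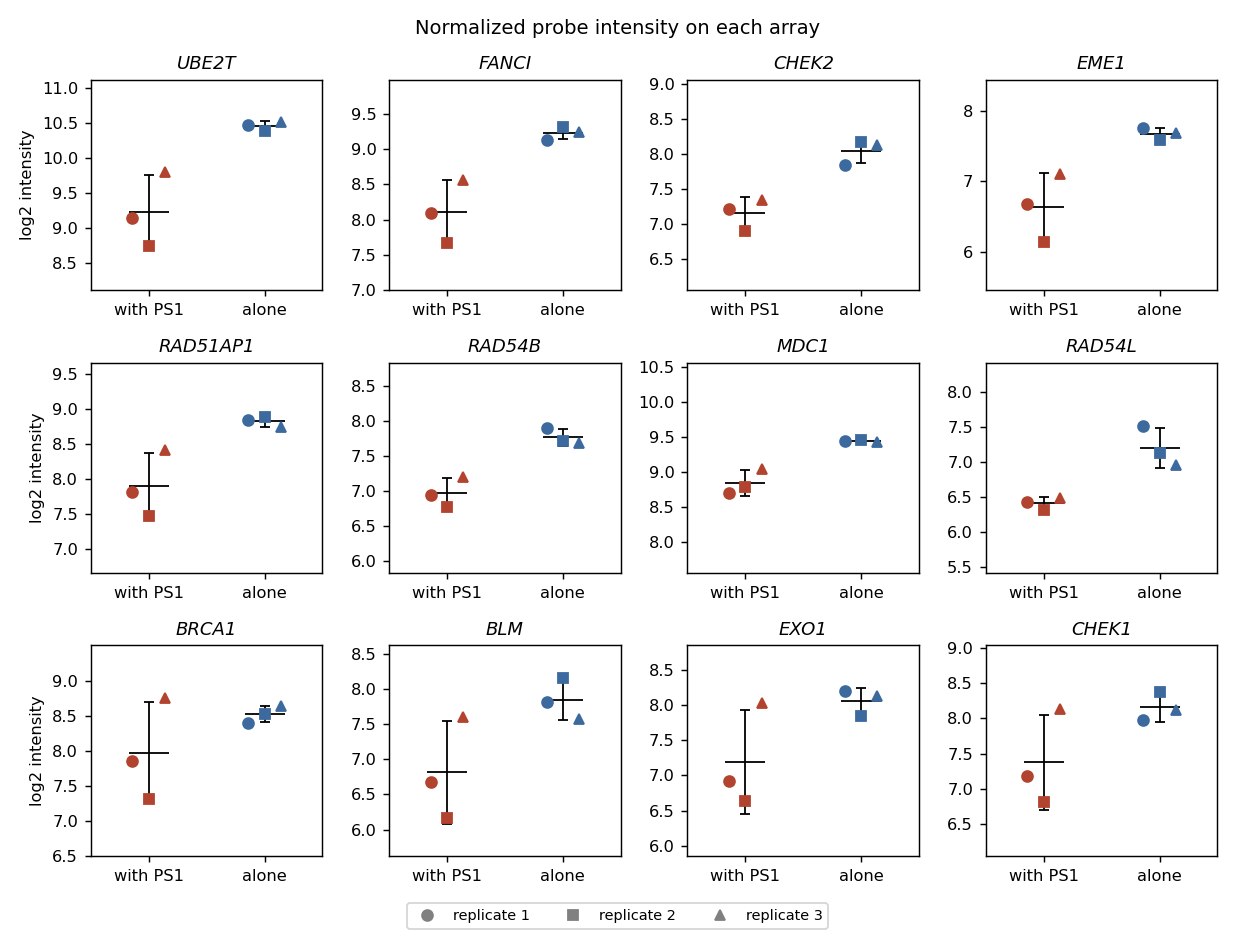
Normalized log2 intensity of 12 members on each array, with PS1 at the left and alone at the right of each panel. Symbols mark the replicate, and the black line and bar give the mean and SD of 3 arrays. Replicate 3 with PS1 is the highest array of its group in each panel, and in BRCA1 it lies above the arrays alone.

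Among the strand exchange genes RAD51AP1 and RAD54B fell. RAD51AP1, which stimulates strand pairing, had log2 intensities of 7.81, 7.47 and 8.41 with stellate cells, against 8.85, 8.88 and 8.74 alone. RAD54B, a DNA translocase of strand exchange, had 6.95, 6.78 and 7.21 with stellate cells, against 7.90, 7.71 and 7.69 alone. Neither gene's groups overlapped, and the log2 changes were -0.92 ± 0.22 and -0.79 ± 0.20 (SE, limma adjusted p = 0.0417 and 0.0459). RAD54L, its paralog, had 6.43, 6.31 and 6.49 with stellate cells, against 7.52, 7.13 and 6.95 alone. These groups did not overlap, and the 3 arrays with stellate cells lay close together, but the change of -0.79 ± 0.22 did not pass (limma adjusted p = 0.0658).

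RAD51B, RAD51C, RAD51D, XRCC2 and XRCC3 form complexes that prepare single strands for exchange. RAD51D, detected on 1 array with stellate cells and on 3 alone, had log2 intensities of 5.17, 5.77 and 5.03 with stellate cells, against 6.04, 5.93 and 6.13 alone, and did not pass (-0.71 ± 0.26, limma adjusted p = 0.158). XRCC3 had 6.69, 6.62 and 7.49 with stellate cells, against 7.75, 7.55 and 7.47 alone, with replicate 3 with stellate cells just inside the range alone (-0.66 ± 0.25, limma adjusted p = 0.170). XRCC2 and RAD51B were the members with values above 0. XRCC2 had 10.07, 10.30 and 10.34 with stellate cells, against 10.26, 10.06 and 9.72 alone, and RAD51B had 5.14, 5.86 and 5.48 with stellate cells, against 5.66, 5.11 and 5.47 alone. Both sets of values overlapped widely, at 0.22 ± 0.17 and 0.08 ± 0.27. XRCC2 turned to -0.03 with median scaling, and a second XRCC2 probe was detected on 2 arrays alone and nowhere else, and was not tested.

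RAD51C, a subunit present in both main complexes of this kind, depended on the probe. Its brightest probe had log2 intensities of 6.58, 6.64 and 6.74 with stellate cells, against 7.32, 7.01 and 7.37 alone, a change of -0.58 ± 0.20 that did not pass (limma adjusted p = 0.142). A second probe, ILMN_2238928, annotated to another RefSeq transcript of the gene and chosen here after its values were seen, had 6.12, 5.83 and 6.20 with stellate cells, against 7.23, 7.41 and 7.36 alone. It fell by 1.28 ± 0.21 on the log2 scale (SE, limma adjusted p = 0.00633). The third tested probe, of the same transcript as the second, had 5.91, 5.78 and 6.55 with stellate cells, against 6.76, 7.17 and 7.34 alone (-1.01 ± 0.26, limma adjusted p = 0.0515). All 3 probes had groups that did not overlap. The second probe passed in 5 of the 6 fits that leave out 1 array and missed without replicate 3 alone (limma adjusted p = 0.0568). Of 10 members with several tested probes the probes shared a sign in 8, all but ATM and NBN. Of the 36 member probes detected on all 6 arrays 34 were below 0, where 50% of all such probes were, and 7 fell, that RAD51C probe and the 6 above, where 2.24% of all such probes fell.

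The genes that act before strand exchange had values below 0 but did not pass. BARD1, the partner that forms a ubiquitin ligase with BRCA1, had log2 intensities of 7.59, 7.43 and 7.92 with stellate cells, against 8.42, 8.18 and 8.33 alone. Its groups did not overlap (-0.66 ± 0.19, limma adjusted p = 0.0752). BRCA1 itself had 7.85, 7.32 and 8.75 with stellate cells, against 8.40, 8.53 and 8.64 alone. Replicates 1 and 2 with stellate cells were below all arrays alone and replicate 3 above them, and the change was -0.55 ± 0.29 (limma adjusted p = 0.352). A second BRCA1 probe had -0.52 ± 0.28. PALB2, which links BRCA1 to BRCA2, had 7.39, 7.71 and 7.59 with stellate cells, against 7.45, 7.89 and 7.91 alone, and overlapped (-0.19 ± 0.20).

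EXO1, a nuclease that trims broken ends, had log2 intensities of 6.92, 6.63 and 8.03 with stellate cells, against 8.21, 7.85 and 8.13 alone. Replicate 3 with stellate cells was among the arrays alone, and the change of -0.87 ± 0.31 did not pass (limma adjusted p = 0.149). A dimmer EXO1 probe was likewise detected only on the 3 arrays alone, and by the same bound was at least 1.34-fold lower with stellate cells (limma adjusted p = 0.132). MRE11, the nuclease of the complex that first binds a break, had 7.34, 7.18 and 7.04 with stellate cells, against 7.66, 7.70 and 7.60 alone, and did not overlap (-0.47 ± 0.19, limma adjusted p = 0.198). A second MRE11 probe had -0.13 ± 0.28. NBN, another subunit of that complex, had 8.61, 8.54 and 8.68 with stellate cells, against 8.54, 8.76 and 8.71 alone, with a change of -0.06 ± 0.16.

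Recombination leaves joined DNA molecules that must be parted. EME1, the partner of the nuclease MUS81, had log2 intensities of 6.68, 6.14 and 7.10 with stellate cells, against 7.75, 7.59 and 7.68 alone. Its groups did not overlap, and it was 2.05-fold lower (log2 change -1.04 ± 0.25, limma adjusted p = 0.0368). MUS81 had 8.26, 8.89 and 8.47 with stellate cells, against 8.81, 8.84 and 8.82 alone. Replicate 2 with stellate cells was the highest of the 6 arrays, and MUS81 did not pass (-0.28 ± 0.19, limma adjusted p = 0.469). SLX4, the scaffold that holds MUS81 and other nucleases, had -0.05 ± 0.28.

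BLM, the helicase that dissolves such junctions, had log2 intensities of 6.68, 6.16 and 7.60 with stellate cells, against 7.81, 8.16 and 7.57 alone. Replicate 3 with stellate cells was level with the lowest array alone, and the change of -1.03 ± 0.32 did not pass (limma adjusted p = 0.0975). Its cofactors RMI1 and RMI2 had groups that did not overlap, by the brightest probe of each. RMI1 had 8.32, 8.20 and 8.82 with stellate cells, against 9.316, 9.004 and 9.003 alone (-0.66 ± 0.20, limma adjusted p = 0.0858). A second RMI1 probe had 7.28, 6.92 and 7.88 with stellate cells, against 7.75, 7.91 and 7.98 alone. The groups of that probe overlapped (-0.52 ± 0.24, limma adjusted p = 0.275). RMI2 had 8.78, 8.67 and 9.23 with stellate cells, against 9.29, 9.42 and 9.31 alone (-0.45 ± 0.18, limma adjusted p = 0.198).

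Of the checkpoint genes, which signal damage to the cell cycle, CHEK2 fell. CHEK2, the kinase activated by ATM, had log2 intensities of 7.22, 6.90 and 7.35 with stellate cells, against 7.84, 8.16 and 8.12 alone, which did not overlap (-0.89 ± 0.20, limma adjusted p = 0.0280). A second probe of the same transcript had -0.90 ± 0.30 and did not pass (limma adjusted p = 0.124). CHEK1, the kinase activated by ATR, had 7.17, 6.82 and 8.13 with stellate cells, against 7.98, 8.38 and 8.12 alone, with replicate 3 with stellate cells inside the range alone (-0.79 ± 0.29, limma adjusted p = 0.165). MDC1, the mediator that binds marked chromatin at breaks, had 8.70, 8.79 and 9.05 with stellate cells, against 9.45, 9.45 and 9.43 alone. Its groups did not overlap, and it stood just short of the threshold (-0.60 ± 0.16, limma adjusted p = 0.0545).

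TOPBP1, an activator of ATR, had 8.65, 8.45 and 9.33 on the log2 scale with stellate cells, against 9.03, 9.35 and 9.32 alone (-0.43 ± 0.22, limma adjusted p = 0.337). TP53BP1, which shields ends from trimming, had 9.16, 9.08 and 8.44 with stellate cells, against 8.92, 9.12 and 8.97 alone. ATM, the kinase that answers to breaks, had 8.29, 8.43 and 7.90 with stellate cells, against 8.34, 8.29 and 8.28 alone. For TP53BP1 and ATM replicate 3 with stellate cells was the lowest of the 6 arrays, whereas in BRCA1 and USP1 it was the highest. Their changes were -0.11 ± 0.20 and -0.10 ± 0.18, and both turned above 0 without that array, to 0.12 and 0.05.

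The 250 bases before the start site are printed for UBE2T, CHEK2, RAD51AP1 and EME1, members that fell together, to show what their promoters hold. RefSeq windows on GRCh38.p14 were matched by symbol for 29 of the 33 members, and FANCI and RAD54B, which also fell, had none. Only the first window listed for a symbol was kept, so a window may not be the gene's main promoter, and other start sites were not searched. Capitals mark CCAAT boxes, the element bound by NF-Y, and TTTGAA or TTCGAA, the CHR element of genes with peak expression late in the cell cycle, searched on both strands. UBE2T lies on the minus strand at chr1:202341937-202342186, CHEK2 on the minus strand at chr22:28741821-28742070, RAD51AP1 on the plus strand at chr12:4538640-4538889 and EME1 on the plus strand at chr17:50372979-50373228. Each is written 5′ to 3′ on the gene's strand.
UBE2T: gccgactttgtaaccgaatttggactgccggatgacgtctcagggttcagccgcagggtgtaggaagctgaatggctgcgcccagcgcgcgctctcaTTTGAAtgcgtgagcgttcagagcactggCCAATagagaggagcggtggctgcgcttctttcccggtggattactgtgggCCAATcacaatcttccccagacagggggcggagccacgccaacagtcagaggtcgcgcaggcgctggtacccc
CHEK2: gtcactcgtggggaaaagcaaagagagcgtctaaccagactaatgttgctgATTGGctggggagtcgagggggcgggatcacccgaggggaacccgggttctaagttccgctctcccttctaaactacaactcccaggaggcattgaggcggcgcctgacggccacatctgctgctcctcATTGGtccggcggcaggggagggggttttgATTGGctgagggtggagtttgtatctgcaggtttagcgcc
RAD51AP1: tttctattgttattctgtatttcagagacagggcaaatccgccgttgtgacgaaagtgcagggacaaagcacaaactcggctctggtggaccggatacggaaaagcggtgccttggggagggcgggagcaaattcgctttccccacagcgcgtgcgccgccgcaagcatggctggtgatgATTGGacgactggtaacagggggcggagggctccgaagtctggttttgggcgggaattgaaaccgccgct
EME1: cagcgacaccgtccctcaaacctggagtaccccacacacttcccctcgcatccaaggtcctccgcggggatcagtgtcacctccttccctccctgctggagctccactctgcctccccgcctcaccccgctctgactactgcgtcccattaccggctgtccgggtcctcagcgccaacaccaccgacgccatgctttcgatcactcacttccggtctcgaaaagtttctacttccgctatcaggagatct

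CCAAT boxes in these windows began 124 and 73 bases before the start of UBE2T, 199, 70 and 40 bases before that of CHEK2 and 70 bases before that of RAD51AP1, and the CHR element of UBE2T began at 153. A CCAAT box stood in 15 of the 29 member windows, or 51.7%, and in 33.0% of all 27305 windows of this length. All windows include genes not measured on these arrays, whereas the members were all measured, so these shares are not of like sets. A CHR element stood in 3 member windows, or 10.3%, and in 14.6% of all windows. The E2F sites TTTCCCGC, TTTCGCGC, TTTGCCGC and TTTGGCGC were in 0 of the 29 and in 2.79% of all windows. The motifs do not overlap in the windows printed. A match is a description of the letters, and no match says only that these letters are not in this window.

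Members were also divided by whether the gene is known for peak expression in S or G2 phase. Of 11 such members, BRCA1, BARD1, BLM, EXO1, RAD51AP1, RAD54L, FANCI, CHEK1, UBE2T, USP1 and EME1, all 11 had values below 0 and 4 fell, with a median log2 change of -0.87. Of the 22 other members 20 had values below 0 and 2 fell, CHEK2 and RAD54B, with a median of -0.44. Of all named genes 48.2% were below 0 and 2.11% fell in that fit. No test compared these sets. The division was chosen with earlier results of these data known, so the difference between the sets is only described. When replicate 3 with stellate cells was left out, all 11 of the first set fell and 9 of the 22 others, and the median of the first was -1.18. Calls also rose over the whole array in that fit, where 8% of all named genes fell. In the fits without another array, 2 of the first set passed without replicate 2 with stellate cells and 0 in the rest, as with 0 of the others in all 5. Of all named genes 0.427% to 0.983% fell in these fits.

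**Figure D3:**
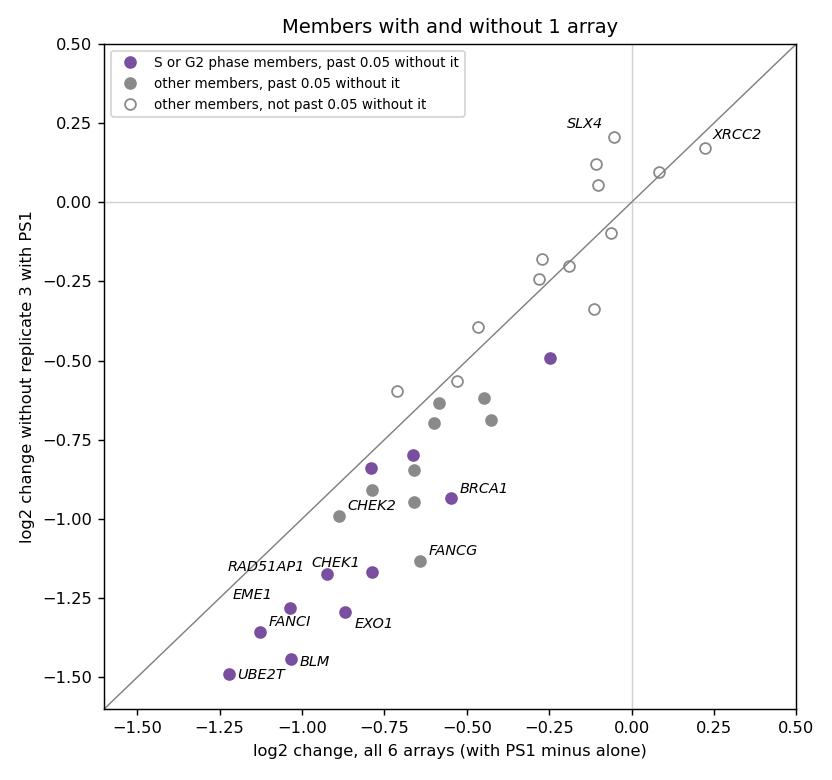
Log2 change of each member with all 6 arrays (horizontal) and without replicate 3 with PS1 (vertical), with PS1 minus alone. Points below the diagonal had a lower log2 change when that array was left out. All 11 members of S or G2 phase are filled, as past an adjusted p of 0.05 without it, and 9 of the 22 others. Of all named genes 8% fell without it.

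Replicate 3 with stellate cells stood between the groups in these genes. After centring each gene on its mean of the 6 arrays, the S or G2 members averaged -0.52, -0.86 and 0.13 on the 3 arrays with stellate cells, in replicate order, against 0.44, 0.44 and 0.38 alone. That of the other members was -0.26, -0.21 and -0.09 with stellate cells, against 0.21, 0.12 and 0.23 alone. Replicate 3 was the highest of the 3 arrays with stellate cells for 23 of the 33 members, and for 13 it lay within or above the range alone. The spread was wider with stellate cells for 27 of the 33 members, with a median SD of 0.36 with stellate cells and 0.12 alone, where 63.3% of all named genes had the wider spread with stellate cells. The same array carried the high 28S signal, and the part of RNA quality in these values was not tested.

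Genes of the cell cycle moved alongside. The centred mean of 29 DNA replication genes was -0.46, -0.56 and 0.18 with stellate cells, against 0.28, 0.23 and 0.33 alone, and that of 33 genes of G2 and M phase was -0.77, -1.04 and -0.02, against 0.53, 0.73 and 0.56 alone. In both lists replicate 3 with stellate cells was again the highest array of its group. Of the replication genes 4 fell, among them RRM2, the small subunit of ribonucleotide reductase, at -1.80 ± 0.22, and UHRF1, which maintains DNA methylation, at -0.83 ± 0.14. Of the genes of G2 and M phase 27 fell, among them CDK1, the kinase that starts mitosis, at -1.43 ± 0.20, and TPX2, a spindle factor, at -1.31 ± 0.19. In these lists 23 and 33 genes fell when replicate 3 with stellate cells was left out, and 1 or 2 and 6 to 13 when any other array was. Of all named genes 48.2% had values below 0, 2.11% fell and 2.65% rose with all 6 arrays. Without replicate 3 with stellate cells 8% of all named genes fell, and without another array 0.427% to 0.983%. These shares also stand beside the lists below. The lists' median log2 changes were -0.54 and -1.21. The part of cell cycle phase in the change of the recombination genes was not tested.

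**Figure D4:**
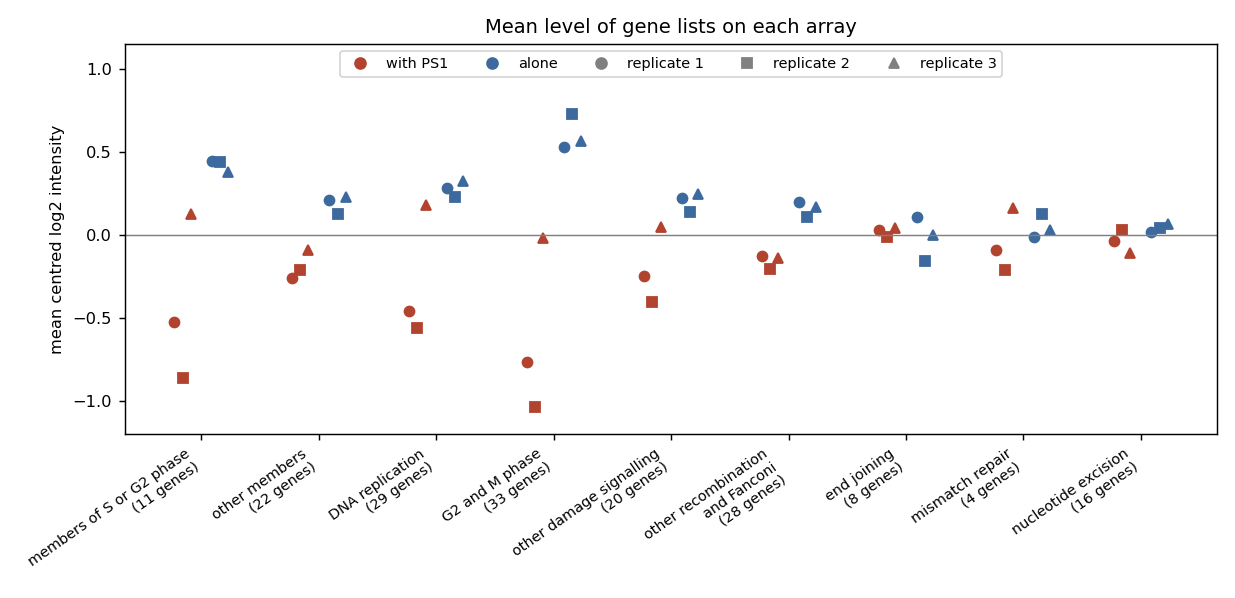
Mean log2 intensity of 9 gene lists on each array, each gene centred over the 6 arrays, with PS1 left of alone in each pair. Symbols mark the replicate. Replicates 1 and 2 with PS1 lie lowest in the S or G2 members, DNA replication and G2 and M phase, and the arrays of both groups mix in end joining and mismatch repair.

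Other genes of recombination and the Fanconi pathway, 28 of 32 listed, had a median log2 change of -0.25, with 20 values below 0, and 2 fell. SFR1, a partner of SWI5 in strand exchange, had log2 intensities of 7.12, 7.26 and 6.37 with stellate cells, against 8.37, 8.76 and 8.46 alone. Unlike the S or G2 members above, it was lowest in replicate 3 with stellate cells, and no array overlapped. SFR1 was 3.06-fold lower (-1.61 ± 0.24, limma adjusted p = 0.00437) and passed in all 6 fits that leave out 1 array, though a dimmer probe had -0.47 ± 0.29 (limma adjusted p = 0.428). MND1, a partner in strand exchange best known from meiosis, fell by 1.11 ± 0.24 on the log2 scale (limma adjusted p = 0.0269). It passed without replicate 3 with stellate cells and missed without each other array, and a second probe had -0.93 ± 0.28 (limma adjusted p = 0.0941). Of this list 7 fell when replicate 3 with stellate cells was left out, and 1 when any other array was.

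Of 20 measured genes of damage signalling 17 had values below 0, at a median of -0.26, and 2 fell. Of all named genes 48.2% had values below 0 and 2.11% fell in that fit. The 2 signalling genes were CDC25B and CDC25C, phosphatases that activate CDK1 and are targets of the checkpoint. Their changes were -1.18 ± 0.24 and -1.26 ± 0.27 (limma adjusted p = 0.0193 and 0.0249). Without replicate 3 with stellate cells 8 of the 20 fell and without any other array 0. The 3 measured subunits of RPA, which coats single strands, ran from -0.36 to -0.26 by the brightest probe of each. Of these 0 passed, or 2 without replicate 3 with stellate cells. Dimmer probes of the subunit RPA1 had -0.57 ± 0.17 and -0.60 ± 0.17 and did not pass (limma adjusted p = 0.0870 and 0.0680).

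Other repair routes had medians closer to 0. For end joining, which rejoins ends without a template, the median of 8 genes was -0.06, with 4 values on each side of 0. In that list POLM, a polymerase that fills ends, rose by 0.77 ± 0.19 on the log2 scale (limma adjusted p = 0.0426), and it missed without any array but replicate 3 with stellate cells. Base excision repair had a median of -0.04 over 19 genes, and NEIL3, a glycosylase that also acts on crosslinks, fell by 1.05 ± 0.23 (limma adjusted p = 0.0262). NEIL3 also missed in the fits without an array other than that one. Mismatch repair had a median of -0.04 over 4 genes and nucleotide excision repair one of -0.09 over 16, and 0 genes passed in either. By the unadjusted limma p mismatch repair had 0 genes under 0.05, and nucleotide excision repair 3 lower and 1 higher. Without replicate 3 with stellate cells end joining had 2 genes lower and 1 higher, base excision 6 lower and 1 higher and nucleotide excision 2 lower and 1 higher. The medians of end joining, base excision and mismatch repair took both signs when 1 array was left out.

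Among 16 measured regulators of the E2F and DREAM system, which times expression of replication and repair genes, 13 had values below 0 and 1 fell. E2F7, a repressor itself expressed in S phase, had -1.01 ± 0.25 (limma adjusted p = 0.0422). FOXM1, an activator of genes of G2 and M phase, had -1.12 ± 0.31 with its brightest probe (limma adjusted p = 0.0643) and -0.98 ± 0.24 with a dimmer one, which passed (limma adjusted p = 0.0422). Without replicate 3 with stellate cells 5 of the list fell and 1 rose, and without any other array 0 passed. Of 11 measured targets of p53 0 passed, at a median of -0.12, with 2 lower and 1 higher at an unadjusted limma p under 0.05. Without replicate 3 with stellate cells 3 of them fell.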

How the data were processed

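RNA of 6 laser-captured samples was labelled and read on Illumina BeadChips. The deposited table holds, per the file headers, the intensity of every probe on each array beside its detection p-value, and intensities were not scaled between arrays. The submitters' processing notes list BeadStudio and GenomeStudio 2011.1, and further steps were not given in the sources. Background was removed with limma's normexp method, which infers the negative controls from those p-values. Then 16 was added, arrays were quantile normalized on the linear scale and log2 was taken. Of 47228 probes 18165 were tested with lmFit and trended eBayes (limma 3.58.1, R 4.3.3). Tests were two-sided, and p-values were adjusted by Benjamini-Hochberg across all of these probes at a threshold of 0.05. Exact permutation of 3 against 3 arrays cannot go below 0.1 and was not used. The number of arrays limits the precision.

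Probes were named through the platform annotation, with symbols updated through RefSeq. The members and gene lists were chosen with earlier results of these data known. Any measured member may be named. Given in full are members past the threshold, the 8 of smallest p and the 5 of highest mean, and of other lists up to 4 genes each. The labels only number the replicates, and the main fit used no pairing. Deviations of same-numbered arrays correlated at -0.02, -0.03 and 0.08, and those of differently numbered arrays between -0.08 and 0.09. With 3 arrays per group these values cannot decide whether samples were paired. The test was checked on simulated data with 200 changed probes among 18165: a log2 change of -1.2 was estimated at -1.19 on average and called in 24% of cases, one of -0.6 in 0%, with 0 false calls. Its noise was drawn separately for each probe, with no shift of a whole array, and fewer probes changed than the 730 called in the data. These rates of calls therefore cannot be carried over to the arrays. Alternatives were other backgrounds, offsets, normalizations, filters, variance models and thresholds, the authors' deposited value table, array weights, array brightness as a covariate, a replicate block, a gene's mean probe and leaving out each array. Figures were drawn with matplotlib 3.10.9.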

Additional observations from a re-analysis of the deposited data

How the results depend on the processing

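The median log2 change of the members stayed below 0 under every alternative run, from -0.79 with median scaling, which moved the median of all named genes to -0.20 and their calls to 270 lower and 61 higher, against 228 and 286, to -0.37 without background correction. No member rose under any alternative. The members called lower were 2 without the intensity trend, 20 with array weights, 0 with brightness as a covariate and 11 at an adjusted p under 0.1, where the whole array had 392, 3357, 163 and 1282 probes called. Of all named genes 1.09%, 9.9%, 0.538% and 3.65% fell, in that order. With the replicate block 5 members and 783 probes were called, where 2.33% of all named genes fell, and RAD54B was the call lost. Leaving out 1 array gave 0 to 20 members and 153 to 2744 probes, where 0.427% to 8% of all named genes fell. Without background correction, with an offset of 50, cyclic loess, the authors' value table, median scaling, the filter of all 6 arrays or a robust variance model 6 members were called, 5 without a filter and 8 with the mean of a gene's probes. Of the named genes fitted 2.16% to 2.5% fell in the fits with 6 calls, 1% without a filter and 2.43% with the mean. Signs turned only for changes that had not passed: with array weights ATM (0.0021), TP53BP1 (0.099), RAD51B (-0.060), SLX4 (0.065) and ACTB (0.071), with brightness SLX4 (0.038), with median scaling XRCC2 (-0.026) and GAPDH (-0.12), and with the mean of probes ATM (0.014), NBN (0.0045) and GAPDH (-0.0049). Leaving out 1 array moved FANCE between -0.34 and 0.0045, RAD51B between -0.096 and 0.26, ATM between -0.21 and 0.054, TP53BP1 between -0.24 and 0.12, SLX4 between -0.29 and 0.21 and ACTB between -0.19 and 0.079. The cause of these changes was not tested. A slide block was not run, since no slide is given. Dim probes near background, such as FANCB, RAD51B and RAD51D, limit what can be read from their changes.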
